A study of Mus musculus with 6 samples.

Results

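The comparison described here set 2 arrays of mouse embryonic fibroblasts labelled IKKa+/+reconstituted against 2 arrays of fibroblasts labelled wild-type, 4 of the 6 arrays of the study. The other 2 arrays carried RNA of IKKa-/- fibroblasts (IKKa-null below), and their levels are given beside the comparison. The samples were chosen by title, and every gene target was used. All cells were cultured in medium with 10% FCS up to 80% confluency, and total RNA was labelled with biotin for Illumina Mouse-6 bead arrays, 1 array per sample. No other treatment is stated. The labels do not say from which line the reconstituted cells were made, how IKKa was returned, whether a line was 1 clone, how the lines were immortalised, or whether the 2 replicates of a group were separate cultures. P-values therefore measure only the spread between these arrays. The question was what still differed from wild type in cells labelled as carrying IKKa again.

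IKKa, encoded by Chuk, is a kinase of the IkB kinase complex. With IKKb and the regulatory subunit IKKg it takes part in signalling to NF-kB, the transcription factor family that drives inflammatory and survival genes, and in the noncanonical branch of that pathway it phosphorylates the NF-kB2 precursor after activation by NIK. It also has roles in epidermal differentiation that do not depend on its kinase activity. Embryonic fibroblasts are connective tissue cells grown from whole embryos, and established lines of them are derived through passage or an introduced oncogene. No target on the array carried the symbol Chuk in the annotation used, so the level of IKKa itself was not analysed here.

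Targets for vector and marker sequences separated the groups before any mouse gene was considered. Values in this paragraph are raw average bead intensities, for which the background probes had medians between 100.8 and 114.45 per array. The neomycin resistance target NeoR read 3458.1 and 2638.1 in reconstituted cells, 2433.1 and 2230.7 in IKKa-null cells, and 106.5 and 117.8 in wild-type cells. Only the wild-type arrays were at background. The target specific for SV40 large T antigen, a viral oncoprotein used to immortalise cells, read 212.3 and 203.2 in reconstituted cells, 88.6 and 111.8 in IKKa-null cells, and 4431.6 and 6076.1 in wild-type cells. Both wild-type arrays thus lay far above the rest, with a weaker signal above background in reconstituted cells. The AmpR target read 146.1 and 141.2 in reconstituted cells, 117.7 and 114.3 in IKKa-null cells, and 463.9 and 778.6 in wild-type cells. AmpR was detected on the wild-type arrays only. The 5′ MoMuSV LTR target, a retroviral promoter sequence, read 292.0 and 219.5 in reconstituted cells, 3260.7 and 3524.9 in IKKa-null cells, and 94.1 and 119.2 in wild-type cells. Here the IKKa-null arrays were the high ones.

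Sex-linked transcripts split the lines as well. Xist, the noncoding RNA that silences 1 X chromosome in female cells, had log2 background-corrected, normalized signals of 5.12 and 5.26 in reconstituted cells and 8.92 and 8.17 in wild-type cells. Its signal was not well above background in reconstituted cells, nor in IKKa-null cells at 5.36 and 4.99. Eif2s3y, a translation factor gene of the Y chromosome, had log2 signals of 8.06 and 8.12 in reconstituted cells, 8.47 and 8.41 in IKKa-null cells, and 4.84 and 4.99 in wild-type cells. The groups did not overlap for either gene, and in both the reconstituted arrays lay beside the IKKa-null arrays. The Y-linked demethylase gene Kdm5d was at 6.73 and 6.46 in reconstituted cells, against 4.59 and 4.63 in wild-type cells. The wild-type cells of this series and the reconstituted cells were therefore not matched in sex chromosome transcripts or in construct transcripts, and the part of these differences in the results below was not tested. They cannot be told apart from the IKKa status of the groups.

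**Figure D1:**
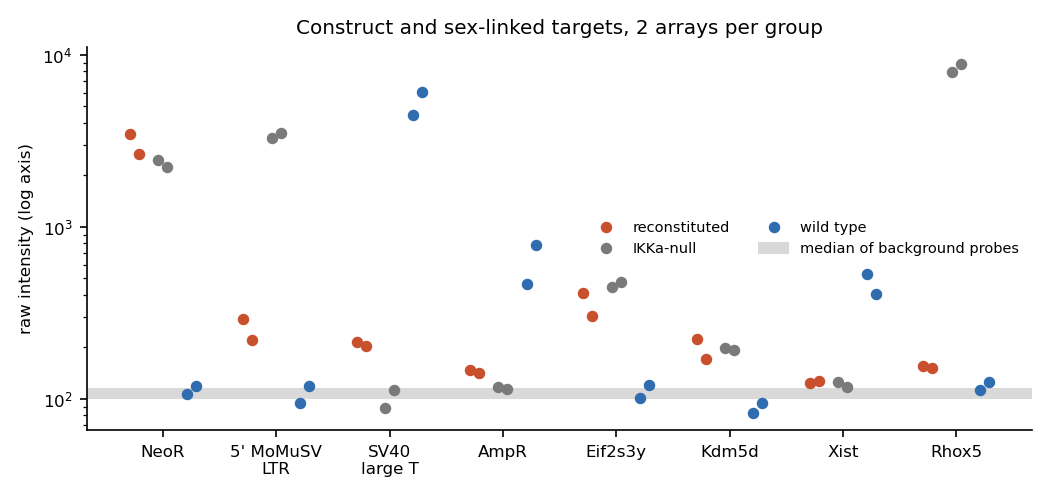
Raw intensity on a log axis of 4 construct targets and 4 sex-linked genes, 1 point per array, with reconstituted arrays left, IKKa-null arrays in the middle and wild-type arrays right. The grey band spans the background medians of the 6 arrays, 100.8 to 114.45. NeoR is high in both reconstituted and IKKa-null cells, SV40 large T and AmpR are highest in wild-type cells, and Rhox5 in IKKa-null cells. Rhox5 was also called higher in reconstituted than in wild-type cells, by 0.78 log2 (adjusted p = 0.013, limma). It lost this call with median scaling and without reconstituted replicate 2 or either wild-type array.

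In the limma fit, a change is the reconstituted mean minus the wild-type mean on the log2 scale of background-corrected, quantile-normalized signal, and a probe was called at a Benjamini-Hochberg adjusted p under 0.05. Of 11647 probes tested, 2024 were higher and 2211 lower in reconstituted than in wild-type cells, together 36.4%. Counted once per gene by its brightest probe, 1156 genes were higher and 1578 lower of 7407, which is 15.6% and 21.3%. The median gene changed by -0.14, and reconstituted and wild-type arrays did not overlap for 71.9% of genes. At least 2-fold changes were found for 734 of the higher genes and 710 of the lower ones, and 8-fold changes for 75 and 24. The count of called probes was 2889 when reconstituted replicate 2 was left out, 2744 when wild-type replicate 1 was, and 2091 when wild-type replicate 2 was, where 694 genes were higher and 673 lower. The difference between the replicates of a group had an SD over probes of 0.471 in reconstituted, 0.414 in IKKa-null and 0.382 in wild-type cells, and precision is limited by how few arrays there were. Actb, which encodes cytoplasmic actin, had log2 signals of 14.13 and 14.07 in reconstituted cells and 14.64 and 14.42 in wild-type cells, and was not called (adjusted p = 0.0916, limma). Gapdh was not called either, with a change of 0.18. Actb was called lower under some other processing, at -0.43. This was so with no background correction, with the authors' normalized values and with an intensity trend in the fit.

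The largest fall was in type IV collagen, the network collagen of basement membranes. Col4a1 had log2 signals of 4.93 and 4.94 in reconstituted cells, 8.32 and 8.45 in IKKa-null cells, and 10.38 and 10.58 in wild-type cells. Col4a2, the gene of its partner chain, had 6.31 and 7.16 in reconstituted cells, 10.64 and 10.10 in IKKa-null cells, and 11.82 and 11.75 in wild-type cells. The 3 groups did not overlap for either gene, and the reconstituted cells were the lowest. Where a group was not well above background on its arrays, its level is only a bound, and folds are then given as "at least", computed against the lowest detected signal or the group's own signal, whichever was higher. Col4a1 was not well above background in reconstituted cells and was at least 19.3-fold lower there (log2 change -5.55 ± 0.17 SE, n = 2 arrays each, adjusted p = 2.15e-05, limma). Col4a2 was 33.1-fold lower (log2 change -5.05 ± 0.32 SE, adjusted p = 0.000154, limma).

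Col4a1 and Col4a2 lie head to head on opposite strands, so their promoter windows are printed. In the RefSeq annotation of GRCm38.p6 their starts are 21 bases apart on chromosome 8, at 11312826 for Col4a1 and 11312805 for Col4a2. Each start thus lies just inside the other gene, so the first bases of the genes overlap and no gap separates them. The windows from 250 bases before to 50 bases after each start share 78 bases, which are in capitals below, and the capitals of one line are the reverse complement of those of the other. The Col4a1 window is chr8:11312777-11313076 on the minus strand and the Col4a2 window chr8:11312555-11312854 on the plus strand.
Col4a1: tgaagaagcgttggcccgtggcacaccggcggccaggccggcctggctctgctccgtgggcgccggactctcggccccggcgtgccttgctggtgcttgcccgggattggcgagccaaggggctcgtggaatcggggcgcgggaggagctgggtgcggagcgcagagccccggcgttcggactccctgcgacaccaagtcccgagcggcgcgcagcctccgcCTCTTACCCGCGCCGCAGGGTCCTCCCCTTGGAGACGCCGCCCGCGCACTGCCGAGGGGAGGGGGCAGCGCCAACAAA
Col4a2: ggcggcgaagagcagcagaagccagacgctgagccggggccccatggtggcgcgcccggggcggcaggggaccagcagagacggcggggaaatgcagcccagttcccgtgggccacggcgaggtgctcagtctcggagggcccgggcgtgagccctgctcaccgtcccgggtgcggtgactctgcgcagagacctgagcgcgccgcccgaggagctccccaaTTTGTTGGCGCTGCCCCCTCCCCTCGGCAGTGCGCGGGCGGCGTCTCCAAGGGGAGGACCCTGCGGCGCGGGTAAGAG

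Each of these windows holds the GC box letters GGGCGG or CCGCCC, present in 35.7% of the 32851 RefSeq promoter windows of the same length, and the CCAAT box letters CCAAT or ATTGG, present in 37.4%. Neither window holds TATAAA or TTTATA, which 13.6% of all windows do. A match of letters is a description and not a binding site. A second pair of type IV collagen genes was looked up after these values were seen. Col4a5 and Col4a6 are also oriented head to head, on the X chromosome, but their starts are 1343 bases apart. Col4a5 had log2 signals of 8.08 and 8.21 in reconstituted cells and 9.42 and 9.15 in wild-type cells, a fall of 1.14 (adjusted p = 0.00494, limma), though its other probe had a change of 0.29 that was not called. Col4a6 had 7.77 and 8.04 in reconstituted cells and 8.11 and 7.40 in wild-type cells, so its groups overlapped, and it was not called.

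Other basement membrane genes went both ways. Of 15 tested among 19 listed, 7 were lower and 3 higher, against 21.3% and 15.6% of all genes, with a median change of -0.50. Nid2, which encodes the laminin-binding linker nidogen 2, and Agrn, which encodes the proteoglycan agrin, were named for their roles after their values were seen, with changes of -2.20 and -1.12, and Agrn lost its call without reconstituted replicate 1 (-0.98) or wild-type replicate 1 (-0.88). Nid2 stood at 7.20 and 7.73 in reconstituted cells and 9.95 and 9.38 in wild-type cells. Col18a1, the gene of the collagen that yields endostatin, had 10.72 and 10.41 in reconstituted cells and 7.73 and 7.16 in wild-type cells, a rise of 3.12 (adjusted p = 0.000392, limma). Sparc, which encodes a collagen-binding matricellular protein, was at least 4.02-fold higher in reconstituted cells. Both Col18a1 and Sparc were also high in IKKa-null cells, where Sparc had 8.79 and 8.67 beside 8.41 and 8.17 in reconstituted cells.

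Most fibroblast markers tested were higher in reconstituted cells. Of 15 listed, 12 were tested, and 8 were higher and none lower by limma, against 15.6% of all genes higher. At an unadjusted p under 0.05, 9 were higher and 1, Col1a1, was lower. The median change of the tested markers was 1.45, against -0.14 over all genes. Thy1, a surface glycoprotein used to sort fibroblasts, had log2 signals of 11.92 and 12.07 in reconstituted cells, 7.28 and 6.10 in IKKa-null cells, and 7.92 and 7.26 in wild-type cells. The reconstituted arrays stood alone at the high level, and the other groups overlapped. Its change was 4.41 ± 0.40 SE (n = 2 each, adjusted p = 0.000556, limma), or 21.3-fold.

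Dcn, which encodes the collagen-binding proteoglycan decorin, had 12.50 and 12.78 in reconstituted cells and 10.05 and 8.20 in wild-type cells. The wild-type arrays differed widely from each other. The change of 3.52 (adjusted p = 0.00467, limma) was 4.45 with the first wild-type array left out and 2.61 with the second left out. All 4 probes of Dcn were called higher. Pdgfra, a receptor for platelet-derived growth factor, had 10.39 and 10.58 in reconstituted cells, 6.28 and 6.27 in IKKa-null cells, and 8.61 and 8.53 in wild-type cells. Wild-type cells lay between the other groups, and the change from wild type was 1.92 ± 0.17 SE (adjusted p = 0.000501, limma). Fn1, the fibronectin gene, rose by 2.09 and Col3a1, a chain of interstitial collagen, by 2.42. Twist1 and Prrx1, transcription factors of mesenchyme, rose by 1.15 and 1.55, and S100a4, a calcium-binding protein gene also called FSP1, by 1.35, without a call when reconstituted replicate 2 was left out (1.22). The markers that were not called were Col1a1 at -0.55, Col1a2 at 0.86, Pdgfrb at 0.86 and Vim at 0.17. Col1a1 was called lower under 5 other processing settings, at -0.51 to -0.55, and Col1a2 was called higher with the replicate number as a block. Pdgfrb was called higher under 4 such settings, at 0.56 to 0.94, and was called without reconstituted replicate 1, at 1.30. Lum, Fap and Postn were not well above background on any of the 4 arrays, and neither was the Vim probe.

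The summed raw intensity of the 15 fibroblast markers was 26839.6 and 21418.8 in reconstituted cells and 7039.2 and 7800.7 in wild-type cells. In a bulk sample, fewer cells of a type and less RNA per cell cannot be told apart. Sums of some other marker lists moved with them. The chondrocyte and osteoblast markers summed to 10480.2 and 9201.8 in reconstituted cells and 1372.9 and 1356.7 in wild-type cells, and this list includes Mgp, while Col2a1, Sp7, Alpl, Bglap and Ibsp were below background on all 4 arrays. The smooth muscle and pericyte markers summed to 11053.1 and 8101.2 in reconstituted cells and 4833.9 and 4229.9 in wild-type cells, with Myh11, Cnn1, Tagln, Des, Rgs5 and Myocd below background on all 4. The part of other cell types in these results was not tested. Skeletal muscle markers and pluripotency markers were detected on none of the 4 arrays. Of 8 epithelial markers on the array, the sums were 967.4 and 899.8 in reconstituted cells and 1335.3 and 1527.4 in wild-type cells, and Cdh1, Krt5, Krt7, Krt8 and Krt18 were below background on all 4. Krt14, an epithelial keratin, had log2 signals of 5.02 and 4.77 in reconstituted cells, 6.04 and 6.11 in IKKa-null cells, and 7.998 and 7.87 in wild-type cells. Krt19 had 5.08 and 4.66 in reconstituted cells and 7.78 and 7.96 in wild-type cells. Both keratins were detected in wild-type cells and not well above background in reconstituted cells, Krt14 at least 3.29-fold and Krt19 at least 3.15-fold lower (adjusted p = 0.000124 and 0.000418, limma).

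**Figure D2:**
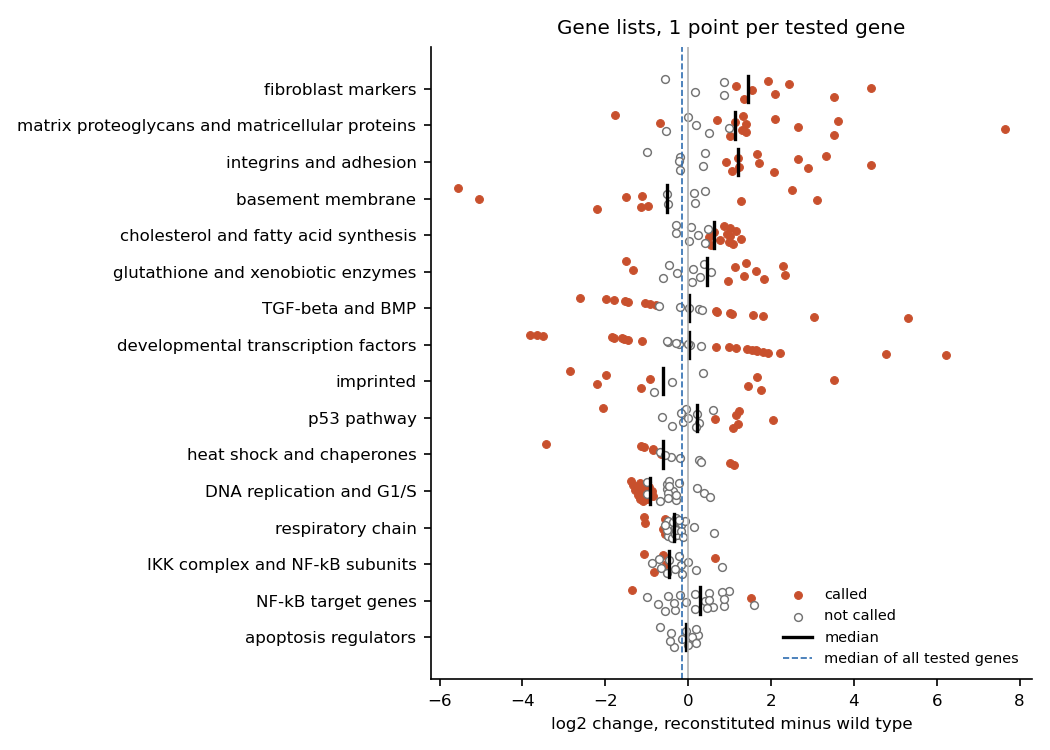
Log2 change, reconstituted minus wild type, for each tested gene of 16 gene lists. Filled points were called by limma, open points were not, black bars are list medians and the dashed line is the median of all tested genes, -0.14. Fibroblast markers, matrix proteoglycans and adhesion genes lie mostly to the right, and DNA replication genes mostly to the left.

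Proteoglycan, matricellular and adhesion genes were also mostly higher in reconstituted cells, and their lists share Dcn, Fn1 and Thy1 with the fibroblast markers. Of 19 tested among 30 matrix proteoglycan and matricellular genes, 12 were higher and 2 lower, against 15.6% and 21.3% of all genes. The median change was 1.12, and 3 of the 19 had been detected in 1 group only. With any 1 array of either group left out, 1 was lower and 9 to 12 were higher. Mgp encodes matrix Gla protein, which restrains calcification of soft tissue, and showed the largest rise of all genes tested. Its log2 signals were 12.62 and 13.24 in reconstituted cells, 10.98 and 10.72 in IKKa-null cells, and 4.98 and 5.61 in wild-type cells. The groups were fully separate, with wild-type cells not well above background. Mgp was at least 100.7-fold higher in reconstituted cells (log2 change 7.64 ± 0.29 SE, adjusted p = 3.05e-05, limma). Prelp, a small leucine-rich proteoglycan gene, was at least 5.25-fold higher and Thbs2, which encodes thrombospondin 2, at least 2.62-fold higher. Among matrix proteases, Mmp2, the gene of gelatinase A, rose by 2.63 and its activator gene Mmp14 by 1.49, while the collagenase gene Mmp13 was at least 1.51-fold lower.

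Of 17 tested adhesion genes among 27, 11 were higher and none lower by limma, against 15.6% and 21.3% of all genes. At an unadjusted p under 0.05 none was lower either. The median change was 1.20, and 1 of the 17 had been detected in 1 group only. With 1 array of either group left out the higher count was 9 or 10. Itga6, the gene of the laminin receptor subunit alpha 6, had log2 signals of 10.21 and 10.05 in reconstituted cells, 10.87 and 10.98 in IKKa-null cells, and 7.43 and 7.56 in wild-type cells. Ly6c1, a surface protein gene of the Ly6 family, had 10.31 and 10.87 in reconstituted cells and 7.39 and 7.15 in wild-type cells. In both genes the IKKa-null arrays lay above the reconstituted ones. Over wild type, Itga6 rose by 2.64 and Ly6c1 by 3.32 (adjusted p = 0.00018 and 0.000388, limma). Ly6c1 belongs to a family of near-identical copies, so its signal may be shared with a paralog.

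Among the other large rises, the IKKa-null level varied from gene to gene. Esm1 encodes endocan, a proteoglycan secreted by endothelial cells, and had 11.16 and 10.81 in reconstituted cells, 4.70 and 4.68 in IKKa-null cells, and 4.65 and 4.75 in wild-type cells. Zic1, a zinc finger transcription factor of neural and somite development, had 9.71 and 9.17 in reconstituted cells, 4.86 and 4.74 in IKKa-null cells, and 4.63 and 4.70 in wild-type cells. Crabp1, a binding protein for retinoic acid, had 10.83 and 11.18 in reconstituted cells, 5.98 and 5.44 in IKKa-null cells, and 5.97 and 5.81 in wild-type cells. These 3 genes were detected in reconstituted cells only. Esm1 was at least 26.1-fold, Zic1 at least 8.95-fold and Crabp1 at least 26.4-fold higher than in wild-type cells (adjusted p = 2.15e-05, 4.67e-05 and 4.92e-05, limma).

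Foxs1, a forkhead transcription factor, had 11.83 and 10.75 in reconstituted cells, 7.001 and 5.02 in IKKa-null cells, and 4.95 and 5.19 in wild-type cells, and was at least 32.2-fold higher in reconstituted than in wild-type cells, where it was not well above background. The measured change of 6.22 was 6.83 without reconstituted replicate 2. Ucp1, the uncoupling protein of brown fat, had 8.44 and 8.33 in reconstituted cells, 5.21 and 4.80 in IKKa-null cells, and 4.83 and 4.66 in wild-type cells. Dpt, which encodes the matrix protein dermatopontin, and Cemip, which encodes a hyaluronan-degrading protein, had the same order of levels, detected in reconstituted cells and in no array of the other groups. They were at least 4.58-fold and 5.43-fold higher than in wild-type cells. Adcy8, a calcium-stimulated adenylyl cyclase gene, and Gnao1, the gene of a G protein alpha subunit abundant in neurons, were at least 8.24-fold and 4.44-fold higher.

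Other genes stood at the IKKa-null level in reconstituted cells. Thbd, which encodes the anticoagulant receptor thrombomodulin, had 10.26 and 10.22 in reconstituted cells, 10.10 and 10.06 in IKKa-null cells, and 5.37 and 5.84 in wild-type cells. Gpnmb, a lysosomal and surface glycoprotein gene, had 12.23 and 12.09 in reconstituted cells, 12.32 and 12.57 in IKKa-null cells, and 8.19 and 8.83 in wild-type cells. Ctsh, a lysosomal cysteine protease gene, had 9.15 and 8.82 in reconstituted cells, 8.79 and 8.84 in IKKa-null cells, and 4.84 and 4.66 in wild-type cells. In these 3 the reconstituted and IKKa-null arrays lay together, well above wild type. Thbd was at least 15.6-fold, Gpnmb 12.6-fold and Ctsh at least 6.53-fold higher in reconstituted than in wild-type cells (adjusted p = 4.26e-05, 0.000205 and 4.26e-05, limma). Klra4, annotated as a lectin-like receptor gene of natural killer cells, had 10.63 and 10.89 in reconstituted cells, 10.45 and 10.82 in IKKa-null cells, and 4.95 and 5.04 in wild-type cells, and it too belongs to a family of near-identical copies.

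Developmental transcription factors changed in both directions. Of 28 tested transcription factors among 56 listed, 12 were higher and 9 lower, against 15.6% and 21.3% of all genes. The median change was 0.02, and 4 of the 28 had been detected in 1 group only. En1, the homeobox gene engrailed 1 of midbrain and limb ectoderm, had 5.73 and 5.12 in reconstituted cells, 5.72 and 5.77 in IKKa-null cells, and 9.32 and 9.15 in wild-type cells. Sox11 and Sox12, related SoxC factors, had 5.50 and 5.37, and 4.93 and 5.05, in reconstituted cells, against 9.14 and 8.996, and 8.68 and 8.31, in wild-type cells. All 3 were not well above background in reconstituted or in IKKa-null cells. En1 was at least 8.11-fold, Sox11 at least 7.23-fold and Sox12 at least 4.85-fold lower in reconstituted than in wild-type cells (adjusted p = 0.000143, 4.94e-05 and 8.77e-05, limma). Hoxb9, a posterior Hox gene, had 5.07 and 4.72 in reconstituted cells, 6.74 and 6.36 in IKKa-null cells, and 9.04 and 8.82 in wild-type cells. Hoxa7, from another Hox cluster, had 9.78 and 9.83 in reconstituted cells and 8.71 and 8.50 in wild-type cells, a rise of 1.20 (adjusted p = 0.00303, limma). Of 10 Hox genes tested among 30, 2 were higher and 3 lower, against 15.6% and 21.3% of all genes. The higher count fell without reconstituted replicate 2 or wild-type replicate 2.

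The promoters of Esm1, high in reconstituted cells, and En1, high in wild-type cells, are shown as examples. Capitals mark each CG, of which Esm1 has 5 and En1 23 in 300 bases. The Esm1 window is chr13:113209409-113209708 and the En1 window chr1:120602237-120602536, both on the plus strand of GRCm38.p6 in the RefSeq annotation.
Esm1: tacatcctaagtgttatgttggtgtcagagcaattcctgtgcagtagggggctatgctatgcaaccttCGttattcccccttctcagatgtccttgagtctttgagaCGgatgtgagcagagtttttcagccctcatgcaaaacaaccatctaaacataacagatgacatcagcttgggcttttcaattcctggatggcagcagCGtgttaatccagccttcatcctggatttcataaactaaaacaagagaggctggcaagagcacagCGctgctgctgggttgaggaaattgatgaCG
En1: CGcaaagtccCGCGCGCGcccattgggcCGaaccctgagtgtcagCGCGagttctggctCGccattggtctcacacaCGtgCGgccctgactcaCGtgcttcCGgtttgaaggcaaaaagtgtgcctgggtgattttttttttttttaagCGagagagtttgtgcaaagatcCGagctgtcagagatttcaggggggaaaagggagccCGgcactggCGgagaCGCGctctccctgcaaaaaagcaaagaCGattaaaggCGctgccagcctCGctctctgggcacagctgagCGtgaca

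Over all genes with a promoter in that table, the median number of CG was 19.5 for 915 called higher, 22.0 for 1305 called lower and 21.5 for 3897 not called. Promoters with 5 CG or fewer belonged to 101 of the 915 genes called higher, 42 of the 1305 called lower and 337 of all 6117 genes. Among genes that changed by 8-fold or more, they belonged to 15 of 55 higher genes and 3 of 20 lower genes. These counts are descriptions, since the genes were chosen by their change.

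**Figure D3:**
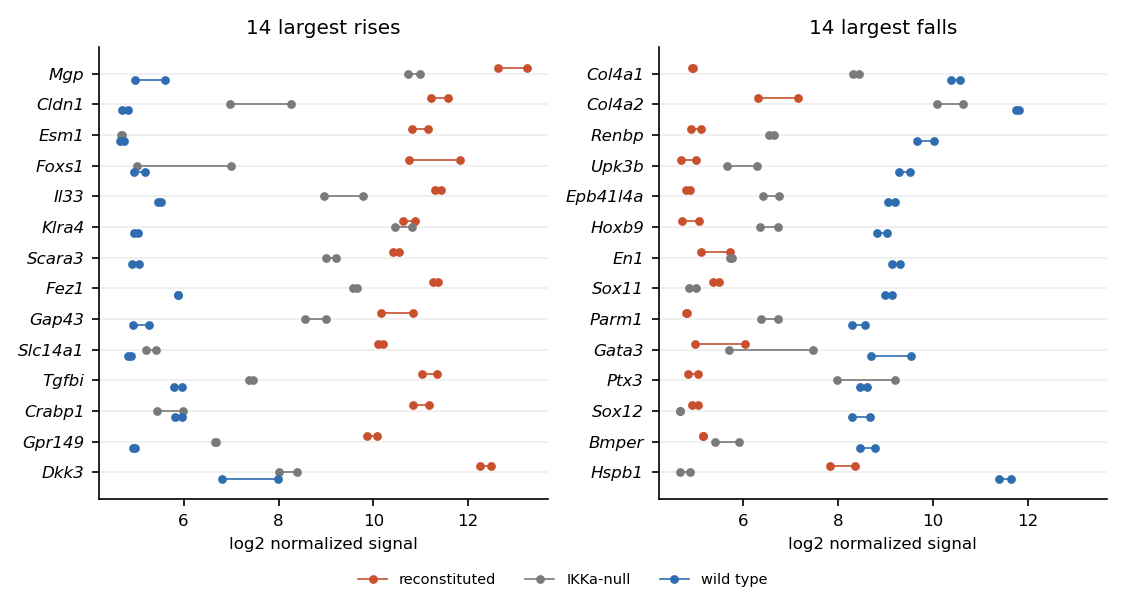
Log2 normalized signal on each array for the called, non-overlapping genes that rose most (14, left) or fell most (14, right), with 2 joined points per group. For each gene, reconstituted arrays are drawn above IKKa-null and wild-type arrays. The IKKa-null points lie near wild type for Esm1 and Crabp1, near the reconstituted cells for Klra4, Sox11 and Sox12, and between for Mgp, Il33 and Col4a1.

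Genes in which the IKKa-null cells lay beyond wild type, on the other side from the reconstituted cells, included Ndn, an imprinted gene for the growth regulator necdin. Ndn had 5.99 and 5.16 in reconstituted cells, 11.40 and 11.51 in IKKa-null cells, and 8.64 and 8.19 in wild-type cells. It was 7.16-fold lower in reconstituted than in wild-type cells (adjusted p = 0.00102, limma). Its signal was not well above background on the second reconstituted array, which limits this fold. Aif1l, an actin-binding protein gene, had 7.51 and 7.30 in reconstituted cells, 10.44 and 10.66 in IKKa-null cells, and 9.46 and 9.29 in wild-type cells. Erfe, a hormone gene that lowers hepcidin, was detected in wild-type and IKKa-null cells and not well above background in reconstituted cells, at least 4.53-fold lower than in wild-type cells. In the other direction, Ramp2, a receptor activity-modifying protein gene for adrenomedullin signalling, had 9.63 and 10.04 in reconstituted cells, 5.94 and 5.80 in IKKa-null cells, and 7.32 and 7.58 in wild-type cells. Serpinf1, which encodes the antiangiogenic factor PEDF, had 13.15 and 13.50 in reconstituted cells, 10.28 and 10.07 in IKKa-null cells, and 12.06 and 11.25 in wild-type cells. Each of these genes had 3 separate levels, with wild type in the middle.

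Of 12 imprinted genes tested among 27, 4 were higher and 5 lower, against 15.6% and 21.3% of all genes. Of the 12, 2 had been detected in 1 group only. Cdkn1c, a cyclin-dependent kinase inhibitor gene, was at least 2.17-fold lower in reconstituted cells. Slc38a4, an amino acid transporter gene, had 7.12 and 6.47 in reconstituted cells and 8.62 and 8.93 in wild-type cells, a fall of 1.98 (adjusted p = 0.00215, limma). Grb10, a growth-restraining adaptor gene named after its values were seen, rose by 1.77.

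DNA replication genes were lower in reconstituted cells. Of 37 listed genes, 32 were tested, 16 were lower and none was higher by limma (23 and 1 at an unadjusted p under 0.05), against 21.3% of all genes lower, and the median change was -0.91. The count was 10 without wild-type replicate 2. Cdc6, which loads the replicative helicase, had log2 signals of 8.82 and 8.83 in reconstituted cells, 8.77 and 8.82 in IKKa-null cells, and 10.27 and 10.14 in wild-type cells, a fall of 1.38 (adjusted p = 0.00157, limma). Chaf1a, a subunit gene of the chromatin assembly factor that follows replication forks, had 7.81 and 8.06 in reconstituted cells, 7.87 and 8.03 in IKKa-null cells, and 9.12 and 9.16 in wild-type cells. The reconstituted and IKKa-null arrays overlapped in both genes, below wild type. Cdk2, the S-phase kinase gene, fell by 1.36 with all 4 of its probes called. The SV40 large T signal moved with this list, at 212.3 and 203.2 in reconstituted cells against 4431.6 and 6076.1 in wild-type cells, and its part in the difference was not tested.

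Of 21 tested mitotic genes among 30, 3 were lower and 1 was higher, against 21.3% and 15.6% of all genes. Pttg1, the securin gene, was 9.08-fold lower in reconstituted cells, with 6.64 and 6.19 there and 9.89 and 9.31 in wild-type cells. Plk1, a mitotic kinase gene, was the higher one, with 10.05 and 10.06 in reconstituted cells, 9.19 and 9.40 in IKKa-null cells, and 6.77 and 7.29 in wild-type cells. Cdkn2a, which encodes the p16 and p19 growth inhibitors, had 7.43 and 7.37 in reconstituted cells, 7.89 and 7.85 in IKKa-null cells, and 9.67 and 9.23 in wild-type cells, a fall of 2.05 (adjusted p = 0.000736, limma). Ccnd1, the cyclin D1 gene, rose by 1.58 with all 4 of its probes called. Of 17 tested p53 pathway genes, 6 were higher and 1, Cdkn2a, was lower, against 15.6% and 21.3% of all genes. The higher count fell without wild-type replicate 2. Ccng1, a p53 target, had 11.13 and 11.15 in reconstituted cells, 12.50 and 12.73 in IKKa-null cells, and 9.90 and 9.99 in wild-type cells.

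In signalling lists the counts varied, beside 15.6% of all genes higher and 21.3% lower. The IGF system had 4 higher and none lower of 7 tested by limma (4 and 1 at an unadjusted p under 0.05), and immediate early genes 4 higher and none lower of 18 (6 and 0), with list medians of 1.43 within replicate number 1 and 0.46 within number 2. Of 21 tested TGF-beta and BMP genes among 30, 8 were higher and 8 lower, and 2 of the 21 had been detected in 1 group only. Both counts of called genes fell with reconstituted replicate 2 or either wild-type array left out. Tgfbi, a matrix protein gene induced by TGF-beta, had 11.03 and 11.34 in reconstituted cells, 7.46 and 7.39 in IKKa-null cells, and 5.97 and 5.80 in wild-type cells. It was at least 29.9-fold higher (log2 change 5.30 ± 0.19 SE, adjusted p = 2.15e-05, limma). Tgfbr3, the coreceptor betaglycan gene, rose by 3.03 and Tgfb2, a ligand gene, fell by 2.60. Id3, an inhibitor of basic helix-loop-helix factors induced by BMP, was named after its values were seen, with 9.09 and 8.19 in reconstituted cells and 10.56 and 10.31 in wild-type cells. In the Wnt list, the secreted modulator gene Dkk3 had 12.25 and 12.48 in reconstituted cells, 8.38 and 8.01 in IKKa-null cells, and 7.98 and 6.82 in wild-type cells, which was 31.2-fold higher.

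Cholesterol synthesis genes were called higher by small amounts. The median change of the list was 0.63, and 13 were higher and none lower at an unadjusted p under 0.05. By limma, 12 of 19 tested among 27 were higher and none lower, against 15.6% and 21.3% of all genes. The count rested on the arrays used, since it was 8 and 2 with the first or the second wild-type array left out, and 7 and 5 with the first or the second reconstituted array left out. Cyp51, a demethylase gene of sterol synthesis, had 11.18 and 11.002 in reconstituted cells, 10.84 and 10.38 in IKKa-null cells, and 10.02 and 9.59 in wild-type cells, a rise of 1.29 (adjusted p = 0.00719, limma).

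Among enzymes of glutathione and xenobiotic metabolism, 8 were higher and 2 lower of 18 tested, against 15.6% and 21.3% of all genes. Of the 18, 2 had been detected in 1 group only. Mgst3, a microsomal glutathione transferase gene, had 10.55 and 10.68 in reconstituted cells and 8.27 and 8.28 in wild-type cells, a rise of 2.34 (adjusted p = 0.000382, limma). Ephx1, the epoxide hydrolase gene, had 10.03 and 10.33 in reconstituted cells, 11.44 and 11.57 in IKKa-null cells, and 8.15 and 7.62 in wild-type cells. The reconstituted level lay between those of the other groups. Of 14 tested chaperone genes, 6 were lower and 2 higher, against 21.3% and 15.6% of all genes. Both chaperone counts fell without wild-type replicate 2. Hspb1, a small heat shock protein gene, had 8.35 and 7.84 in reconstituted cells, 4.88 and 4.66 in IKKa-null cells, and 11.39 and 11.65 in wild-type cells, and was 10.8-fold lower in reconstituted than in wild-type cells (adjusted p = 0.000204, limma).

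Of 17 tested genes of the IKK complex and the NF-kB subunits, 1 was higher and 4 lower, against 36.9% of all genes called in either direction. Of the 17, 2 had been detected in 1 group only. The called changes lay between -1.05 and 0.65. Relb, the NF-kB subunit of the noncanonical branch, was at least 1.38-fold lower in reconstituted cells, without a call when reconstituted replicate 2 (-0.80) or wild-type replicate 1 (-0.85) was left out, and Ikbkb, which encodes the kinase partner IKKb, was 1.57-fold higher, though another probe of Ikbkb had a change of -0.21 that was not called. The lower count was 0 with reconstituted replicate 2 or wild-type replicate 1 left out, and 1 with wild-type replicate 2 left out, and in these fits Ikbkb lost its call, at 0.48, 0.68 and 0.62. Of 3 tested noncanonical NF-kB targets among 10, Relb and the chemokine gene Cxcl12 were lower and Nfkb2, at -0.64, was not called. Over all genes, 21.3% were lower. Cxcl12 had a change of -0.62 (adjusted p = 0.0386, limma), lost its call with any 1 array of either group left out, at -0.67 to -0.57, and had another probe at 0.89 that was not called. Of 11 tested apoptosis regulators none was called by limma, against 36.9% of all genes called in either direction. At an unadjusted p under 0.05, 1 was lower, and 1 was called lower with either reconstituted array left out. Birc2, Birc3 and Yap1, neighbours on chromosome 9 chosen after their values were seen, were not called, at changes of -0.02, 0.18 and -0.33, while Birc2 had 6.17 and 5.85 in reconstituted cells, 9.67 and 9.75 in IKKa-null cells, and 6.39 and 5.67 in wild-type cells.

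NF-kB target genes differed more between the replicate numbers than between the groups. Of 22 tested among 28, 1 was higher and 1 lower, against 15.6% and 21.3% of all genes, and the median change was 0.28. Tnfaip3, which encodes the NF-kB inhibitor A20, had log2 signals of 11.62 and 5.21 in reconstituted cells, 11.60 and 7.27 in IKKa-null cells, and 8.99 and 7.49 in wild-type cells. Nfkbia, the IkBa gene, had 10.59 and 5.70 in reconstituted cells and 9.12 and 7.78 in wild-type cells, and the chemokine gene Cxcl1 had 13.89 and 8.23 in reconstituted cells and 12.76 and 8.43 in wild-type cells. The first array of each group was the high one, and reconstituted and wild-type arrays overlapped in all 3 genes, which were chosen after their values were seen. Replicate 1 was at least 2-fold above replicate 2 for 14 of the 22 genes in reconstituted cells, 16 in IKKa-null cells and 10 in wild-type cells, against 177, 135 and 83 of 7407 genes.

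Taken within replicate number 1, reconstituted minus wild type had a median of 1.16 over the NF-kB targets, and within replicate number 2 of -0.49. The direction of this list's median therefore did not hold from one number to the other. For chemokines and cytokines the medians were 1.56 and -0.06, and for interferon-stimulated genes they were -0.92 and 0.54. Over all genes the medians were -0.13 and -0.12. The called target genes were Tnfaip2, with 8.47 and 7.72 in reconstituted cells and 6.73 and 6.44 in wild-type cells (adjusted p = 0.0135, limma), and Mmp13. Tnfaip2 lost its call without wild-type replicate 2, at a change of 1.35. Il33, an alarmin cytokine gene, differed from this pattern, with 11.31 and 11.42 in reconstituted cells, 9.78 and 8.96 in IKKa-null cells, and 5.46 and 5.52 in wild-type cells, at least 33.9-fold higher.

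**Figure D4:**
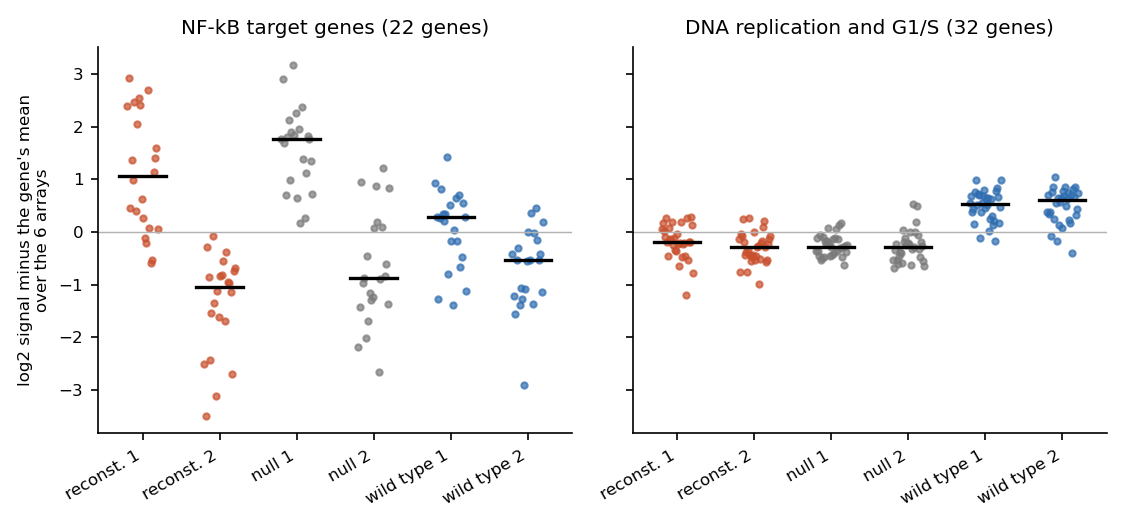
Log2 signal minus each gene's mean over the 6 arrays, for 22 NF-kB target genes and 32 DNA replication genes, by array, with reconstituted arrays left, IKKa-null arrays in the middle and wild-type arrays right, and black bars at the median. NF-kB targets separate the first from the second array of each group, while replication genes separate wild-type arrays from the other 4.

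Falls were denser along some chromosomes than others. In windows of 24 to 27 tested genes in genome order, 294 in all, the median change ran from -1.20 to 0.63 around a centre of -0.12. The lowest window was the last one of chromosome 4. A stretch at the distal end of chromosome 4, from Exosc10 to Noc2l, was picked out after the values were seen. Of its 55 tested genes, 42 were lower and 1 higher, against 21.3% and 15.6% of all genes. The median change there was -1.12, against -0.15 over the other 400 tested genes of the chromosome. In IKKa-null cells the same 55 genes had a median of -0.40 against wild type. The median of the reconstituted cells was -1.08 within replicate number 1 and -0.94 within number 2. The count of lower genes was 27 with the first wild-type array left out and 25 with the second left out.

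The stretch held the longest run of neighbouring genes called lower, 13 genes from Nphp4 to Mib2 over 3.178 Mb, with a median change of -1.20, and another of 8 genes from Cenps to Slc25a33. Of the genes at the ends of these runs, Slc25a33 kept its call whichever array was left out, with changes from -3.54 to -2.34, whereas Mib2 lost its call without reconstituted replicate 1 (-0.44) or either wild-type array (-0.68 and -0.90), Nphp4 without reconstituted replicate 2 (-1.02) or wild-type replicate 1 (-1.04), and Cenps without reconstituted replicate 2 (-0.90) or either wild-type array (-1.42 and -1.25). Pank4, a pantothenate kinase family gene of the first run, had log2 signals of 6.95 and 6.85 in reconstituted cells, 7.99 and 8.13 in IKKa-null cells, and 8.88 and 9.04 in wild-type cells. Ctnnbip1, which encodes an inhibitor of beta-catenin, had 6.18 and 6.16 in reconstituted cells, 7.04 and 7.04 in IKKa-null cells, and 8.78 and 8.55 in wild-type cells. Rer1, a gene of retrieval to the endoplasmic reticulum, had 9.55 and 9.35 in reconstituted cells, 10.26 and 10.36 in IKKa-null cells, and 10.55 and 10.74 in wild-type cells. In each the reconstituted arrays were lowest. Pank4 fell by 2.06, Ctnnbip1 by 2.49 and Rer1 by 1.20 (adjusted p = 0.000432, 0.000219 and 0.0035, limma). Ctnnbip1 was not well above background on the second reconstituted array.

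The distal part of chromosome 5, from Rpl5 to Stard13, and chromosome 15 were also picked out after the values were seen. The chromosome 5 part had 132 of 267 tested genes lower and 8 higher, with a median of -0.60. The other 225 tested genes of that chromosome had 58 lower and 35 higher, with a median of -0.22. Over all genes, 21.3% were lower and 15.6% higher. The median of the chromosome 5 part in IKKa-null cells was -0.73 against wild type, and these comparisons share the wild-type arrays. On chromosome 15, 116 of 311 tested genes were lower and 34 higher, against 21.3% and 15.6% of all genes. The chromosome 15 median was -0.45 in reconstituted and -0.09 in IKKa-null cells. With the first or the second wild-type array left out, the lower count was 86 and 83 on chromosome 5 and 72 and 56 on chromosome 15. Without the second one the higher counts were 4 and 22. Over all genes, the lower and higher counts also fell with either wild-type array left out. Among runs elsewhere, 6 neighbouring genes from Igf2bp1 to Hoxb9 on chromosome 11 were lower, and 6 from Pdcd4 to Tcf7l2 on chromosome 19 were higher, with medians of -1.27 and 0.93. Tcf7l2 lost its call without wild-type replicate 2 (0.89), and Pdcd4 without it (0.55) or either reconstituted array (0.86 and 1.10). DNA copy number was not measured.

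**Figure D5:**
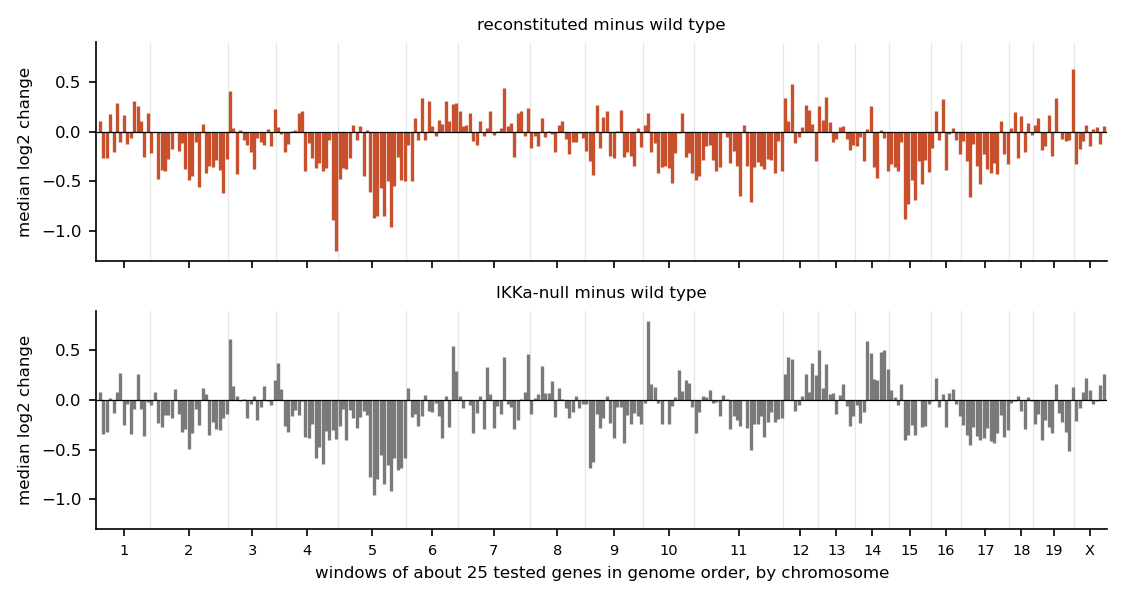
Median log2 change in windows of about 25 tested genes in genome order, for reconstituted minus wild type above and IKKa-null minus wild type below. The lowest window in the upper panel is the distal end of chromosome 4, at -1.20, and the distal windows of chromosome 5 are low in both panels.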

How the data were processed

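Total RNA of 6 samples was measured on Illumina Mouse-6 bead arrays, and the deposited values are average bead intensities per target, exported without normalization per the file headers. The authors' value table of the same arrays holds linear intensities that match these after quantile normalization, and it served to join targets to the platform annotation. Of 46120 targets, 46116 were joined, 29534 with 1 gene symbol, 11 with several and 16575 with none; only targets with 1 symbol were named. From the intensities, background was corrected with normexp on 394 background probes with an offset of 16 (limma 3.58.1, R 4.3.3), arrays were quantile normalized and log2 taken. A probe was detected where under 1% of background probes reached its signal, and tested if detected on at least 2 of 6 arrays. One limma model with 3 group means was fitted to all 6 arrays, with Benjamini-Hochberg adjustment over all tested probes. Each gene is represented by its brightest probe.

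Groups come from the sample titles. The fit was tested on simulated data. Named genes are the largest called, non-overlapping rises and falls, those nearest each IKKa-null pattern, the leading called genes of each list and of neighbouring runs; others are marked as chosen after their values were seen. The samples, lists and members were chosen with earlier results of these data known. Alternatives covered background correction, scaling, probe filters, the arrays entering the fit and leaving out each array. Promoters are RefSeq, GRCm38.p6; no genome sequence beyond them was used.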

Additional observations from a re-analysis of the deposited data

Results flagged for a closer look

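Signals outside the gene measurements stood above the wild-type level in reconstituted cells for a pair of vector targets. NeoR, the neomycin resistance marker, averaged 3048.1 in raw intensity over the reconstituted arrays, whose values were 3458.1 and 2638.1, against 106.5 and 117.8 on the wild-type arrays. The 5′ MoMuSV LTR target averaged 255.8 over the reconstituted arrays, at 292.0 and 219.5, against 94.1 and 119.2 on the wild-type arrays. Groups of 2 arrays were too small to look for single outlying samples.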

How the results depend on the processing

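With each of the 6 arrays left out in turn, the called probes numbered 2091 to 3766, of which 1176 to 1846 were higher and 915 to 1920 lower, and the called genes 694 to 1071 higher and 673 to 1371 lower. The lowest counts were those without wild-type replicate 2, which also left 141 of the 241 calls over all gene lists, with a range of 141 to 223. With median scaling in place of quantile normalization, 2378 probes were called, 1220 higher and 1158 lower, with 687 genes higher, 833 lower and 160 list calls. Of 227 called genes that the naming rule covers, more than the text names, 116 were called when probes had to be detected on all 6 arrays, a filter that leaves fewer genes to test, and 166 to 216 with 1 array left out. In the other settings these counts stayed within 1.5 times. Among the 90 called genes named in the text, 827 of 854 comparisons under other processing and 499 of 540 with an array left out kept direction and call, and none changed direction. Genes that were not called gained a call in 13 comparisons under other processing and in 1 with an array left out. Other probes changed sign for Ikbkb at -0.21, Cxcl12 at 0.89, Col4a5 at 0.29, Birc2 at 0.30 and Rpl5 at 1.04. Of these only the Rpl5 probe was called, and it was higher (adjusted p = 0.0237, limma). Genes that were not called changed sign as follows, and the cause was not tested. Birc2 was at 0.10 with median scaling, 0.24 with cyclic loess and between -0.37 and 0.35 with 1 array left out. Nfkbia was at 0.11 with no background correction and with the authors' normalized values, and between -2.74 and 2.15 with 1 array left out. With 1 array left out, Cxcl1 lay between -2.37 and 3.27, Tnfaip3 between -2.99 and 3.38, Col4a6 between -0.20 and 0.50 and Vim between -0.03 and 0.38. The replicate numbers were not shown to pair the arrays, since same-numbered deviations from the group mean correlated at 0.37 between reconstituted and IKKa-null arrays and 0.298 between IKKa-null and wild-type arrays, but at 0.051 between reconstituted and wild-type arrays. With the replicate number as a block, 4510 probes were called, 2176 higher and 2334 lower. Low signal limits genes near background to bounds.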

Other observations

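Transcripts of mitochondrial DNA were not in any list. Of 13 such targets, 11 were detected on all 4 arrays of the comparison. For 10 of these both reconstituted arrays lay above both wild-type arrays. Among all genes, the arrays of these groups did not overlap, in either direction, for 71.9%. The changes of the 11 targets, reconstituted minus wild type, had a median of 0.58 on the log2 scale and ran from -0.06 to 1.93. Nuclear genes of the respiratory chain had a median of -0.34, with 5 of 26 tested genes called lower, against 21.3% of all genes, and none higher by limma, 10 and 0 at an unadjusted p under 0.05, and 2 lower with any 1 array of either group left out. The array targets of mitochondrial origin were chosen after their values were seen.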
